A study of Mus musculus with 6 samples.

Results

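AP-1 is a family of transcription factors whose members pair through a leucine zipper and bind a short DNA site as dimers. Its members in these macrophages were followed through 10 genes, namely Fos, Fosb, Fosl1, Fosl2, Jun, Junb, Jund, Atf3, Batf and Maff. They were chosen by gene symbol, and all 10 symbols were found among the 54532 genes of the deposited table. The tests below used the 9 members with a mean of at least 1 FPKM (fragments per kilobase of gene length, scaled to the depth of the library) over the 6 libraries, which left out Fosb.

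RNA was sequenced from peritoneal macrophages of wild-type male C57BL/6J mice aged 6 to 8 weeks, collected 5 days after thioglycolate injection. Control cells were left untreated. Model cells were exposed to 500 ng/mL LPS, a component of the bacterial outer membrane, for 5.5 h and then to 2 mM ATP for 0.5 h, a sequence that primes and then triggers the NLRP3 inflammasome. MUS cells underwent the same LPS and ATP steps and also received 50 μM muscone, the macrocyclic ketone of musk, 5 h after LPS. Each group held 2 libraries, and nothing in the sources used here says whether these came from separate animals or cultures, so p-values measure only the spread between these libraries. Fewer cells of a type and less RNA per cell cannot be told apart in such bulk samples.

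In macrophages, Toll-like receptor signals such as LPS reach AP-1 through the ERK, JNK and p38 MAP kinases, which act on AP-1 proteins and on the transcription of their genes. Fos proteins cannot pair with each other and need a Jun partner, whereas Jun proteins can also pair among themselves. Fos, Fosb, Jun and Junb belong to the immediate early genes, whose transcripts appear within minutes of a stimulus and decay quickly. ATF3 is a stress-induced factor known to restrain Toll-like receptor responses, BATF is a small AP-1 factor that pairs with Jun proteins and works with IRF factors, and MAFF is a small Maf factor without a transactivation domain.

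Promoter sequence was taken from RefSeq on GRCm38.p6, where 9 of the 10 members were matched with 11 start sites between them. The 150 bases before each start were searched on both strands for the AP-1 site TGANTCA, the octamer TGACNTCA, which resembles the cAMP response element (CRE), the CRE core TGACG, which an octamer with G at its open position also contains, and the TATA box TATAAA. The promoters of Fos, Jun, Junb and Batf are shown with these matches in capitals. Fos and Jun lay lower in both Model libraries than in both Control libraries, and Batf rose. Junb had the highest mean of the Jun family in every group. The Fos stretch is chr12:85473740-85473889 on the plus strand, and the Jun stretch is chr4:95052223-95052372 on the minus strand. The Junb stretch is chr8:84978749-84978898 on the minus strand, and the Batf stretch, chr12:85686570-85686668 on the plus strand, stops where an annotated exon begins.
Fos: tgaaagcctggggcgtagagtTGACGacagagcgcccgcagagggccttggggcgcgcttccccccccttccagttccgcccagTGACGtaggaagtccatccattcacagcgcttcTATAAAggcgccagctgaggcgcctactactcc
Jun: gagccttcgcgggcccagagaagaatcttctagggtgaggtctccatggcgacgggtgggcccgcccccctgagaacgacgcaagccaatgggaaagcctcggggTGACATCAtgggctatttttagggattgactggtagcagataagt
Junb: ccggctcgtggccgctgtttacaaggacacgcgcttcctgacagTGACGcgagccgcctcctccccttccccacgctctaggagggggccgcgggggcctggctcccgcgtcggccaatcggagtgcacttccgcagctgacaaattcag
Batf: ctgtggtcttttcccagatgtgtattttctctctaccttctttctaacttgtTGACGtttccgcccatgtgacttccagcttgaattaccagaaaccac
Fos held the CRE core at bases -129 and -66 and a TATA box at -33, counted from the base before the start. Jun held an octamer at -45, Junb a core at -106 and Batf a core at -98. The Batf position counts from its RefSeq start at chr12:85686720, which lies beyond the end of the stretch shown. Of the windows not shown, that of Fosl2, which also rose, held no match. Neither did the window of Jund or the Maff window at chr15:79346471-79346620. Atf3 held a core at -7 and Fosb a core at -60, and the remaining Maff windows held octamers at -29 and -45 along with cores. All windows follow RefSeq starts, which can lie far from the deposited gene starts. Relative to the deposited start, the RefSeq start was at 671 bases for Fosl2, -1210 for Jund and 34706 for Atf3, with negative values upstream. For the remaining Maff windows it was at 899 and 1781. The 150 bases before the deposited starts of Fosl2, Jund and Atf3 were not searched. No member window held the letters TGANTCA, which occurred in 4.24% of all 32851 RefSeq windows of the same length. Of these windows, 13.3% held the core, 5.70% the octamer and 7.57% the TATA box. A match describes the letters in the window and is no evidence of binding.

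The libraries held between 15526321 and 17135442 fragments on genes, recovered from FPKM and gene length. The per-million scale behind the deposited FPKM was 1.34 to 1.45 times the fragment total in Control, against 0.909 to 0.998 in Model and 0.932 to 0.986 in MUS. The median log2 fold change of all genes in Model vs. Control was 0.04 as deposited and -0.40 with each library rescaled to its fragments. Model replicate 1 had 24906 genes with at least 1 fragment, against 17406 to 19200 in the other libraries. Control replicate 2 held 34.2 FPKM of Il1b, an LPS-induced cytokine gene, against 0.550 FPKM in Control replicate 1 and 4750 FPKM or more in the Model libraries. Of other genes that rose in Model vs. Control, it held 183 FPKM of Tnf against 8.62 and 32.1 FPKM of Ptgs2 against 0.907 in Control replicate 1. Plaur and Timp1, which also rose, were not higher in Control replicate 2. The part of this library in the spread within Control was not tested. All 7 macrophage markers had a mean of at least 1 FPKM, with sums of 8426 to 13340 FPKM, most of it Lyz2. Between Control and Model, mean Fcgr1 went from 13.1 to 154 FPKM and mean Csf1r from 240 to 92.0 FPKM. The other 5 did not pass the test used below in that comparison. None of the 4 T cell, 4 B cell and 4 mast cell markers reached that mean. Of 5 neutrophil markers only S100a8 did, while Ly6g, S100a9 and Retnlg were listed at 0. The neutrophil sum, nearly all of it S100a8, was 13.5 to 30.6 FPKM for Control, 56.5 to 110.0 FPKM for Model and 50.3 to 64.0 FPKM for MUS. Of 4 eosinophil markers 1 reached the mean, with Epx and Prg2 listed at 0 and sums of 1.42 to 4.17 FPKM. So did 3 of 5 fibroblast or mesothelium markers, whose sums were 11.8 to 13.1 FPKM for Control, 14.7 to 22.7 FPKM for Model and 13.4 to 15.7 FPKM for MUS, and both markers of resident peritoneal macrophages. Mitochondrial genes took 1.39% to 1.51% of the fragments in Control and 0.206% to 0.497% in the stimulated libraries. The part of these cells, and of the mitochondrial share, in the results below was not tested.

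Positions are those of the deposited table, which match GRCm38. Among the Fos family, Fos lies at chr12:85473890-85477273 on the plus strand, Fosl1 at chr19:5447703-5455945 (plus), Fosl2 at chr5:32135801-32157842 (plus) and Fosb at chr7:19302696-19310051 (minus). Fos, the founding member, was highest in Control, at 31.6 and 17.5 FPKM in replicates 1 and 2. It was 7.95 and 12.7 FPKM in Model and 20.2 and 16.6 FPKM in MUS. Both Model libraries were thus below all 4 others, while the Control and MUS ranges overlapped. Fosl2, which encodes the long-lived FRA-2 protein, went the other way. Its level was 4.0 and 8.39 FPKM in Control, 30.1 and 38.1 FPKM in Model and 34.5 and 34.3 FPKM in MUS. The 4 stimulated libraries did not overlap with Control, and both MUS libraries lay within the Model range. Fosl1, which encodes FRA-1, stayed near 1 FPKM in every library, from 0.902 to 1.2 FPKM on 25 to 47 fragments. Fosb was the least abundant member in all 3 groups, with 0.098 and 0.028 FPKM in Control, 0.068 and 0.083 FPKM in Model, and somewhat more in MUS, at 0.233 and 0.138 FPKM. These values rest on 4 to 22 fragments a library.

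The Jun genes lie at chr4:95049034-95052222 (Jun, minus), chr8:84974484-84978718 (Junb, minus) and chr8:70698949-70700616 (Jund, plus). Jun, the partner of most Fos proteins, was 49.6 and 28.6 FPKM in Control, 9.62 and 13.8 FPKM in Model and 7.32 and 9.81 FPKM in MUS. All 4 stimulated libraries were below both Control libraries. Junb, which can replace Jun in the dimer with other target preferences, was 48.9 and 68.2 FPKM in Control. It reached 105.5 and 93.0 FPKM in Model and was 39.8 and 58.4 FPKM in MUS. Both Model libraries were above all other libraries, and MUS overlapped with Control. Jund, the Jun gene usually described as constitutive, was 22.8 and 16.8 FPKM in Control, 28.1 and 13.5 FPKM in Model and 3.73 and 6.57 FPKM in MUS. The Model libraries differed from each other by more than the Control libraries did, and both MUS libraries were below the other 4. Jun, Junb and Jund each consist of 1 exon, and 7.52% of the Junb exon bases also lie in exons of Prdx2 on the opposite strand, so reads there may belong to either gene unless counting used strand, which is not stated in the sources used here.

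Atf3 lies at chr1:191170296-191218039 (minus), Batf at chr12:85686669-85709087 (plus) and Maff at chr15:79346621-79359076 (plus). Atf3 was the most abundant member in all 6 libraries. Its level was 199 and 239 FPKM in Control, 391 and 343 FPKM in Model and 507 and 511 FPKM in MUS, so the 3 groups did not overlap. Batf was low in Control, at 2.15 and 3.51 FPKM, and higher in the stimulated libraries, at 20.8 and 11.7 FPKM in Model and 16.7 and 18.2 FPKM in MUS. Both MUS libraries were inside the Model range. Maff was 4.54 and 21.2 FPKM in Control, 16.2 and 16.2 FPKM in Model and 7.5 and 9.97 FPKM in MUS. Control replicate 2 alone exceeded every other library, and the difference within Control was larger than any difference between group means.

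**Figure D1:**
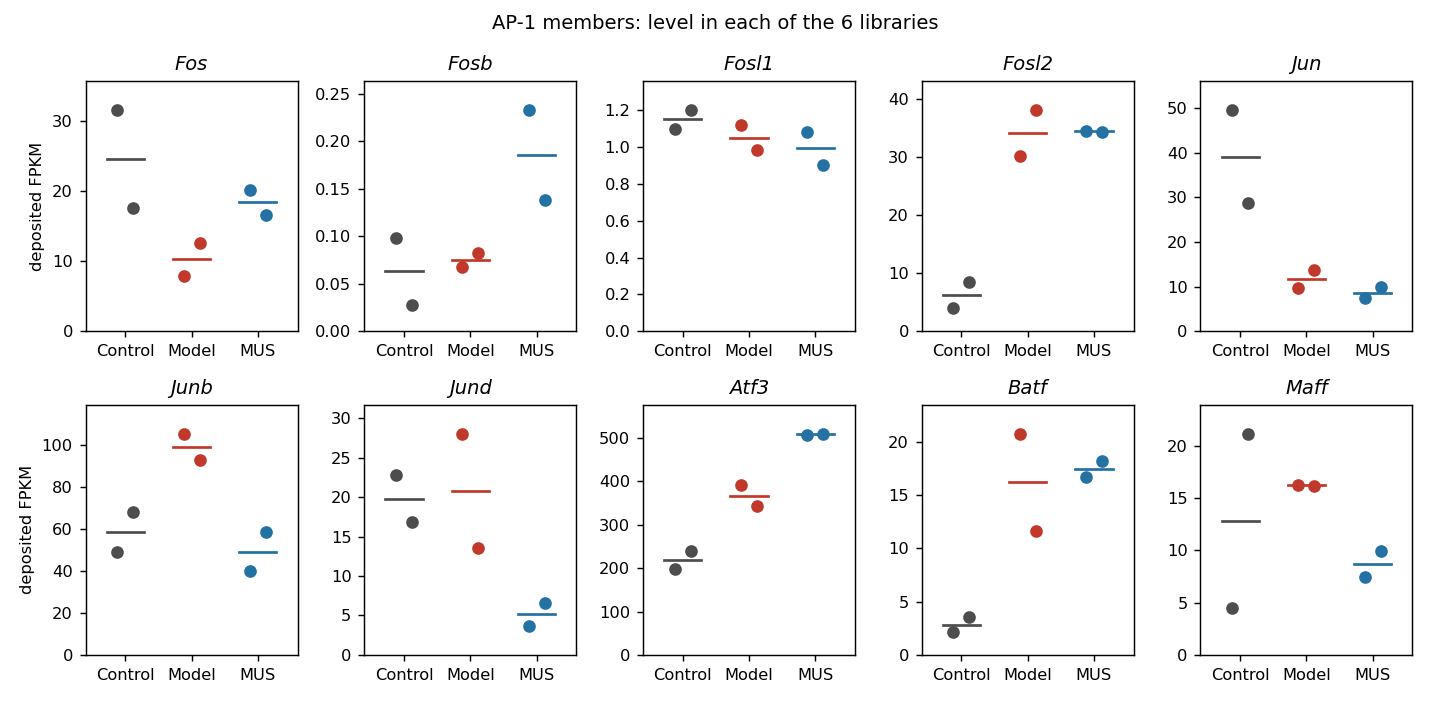
Deposited FPKM (vertical axis, from 0) of the 10 AP-1 members in the Control, Model and MUS groups, with 1 point for each library and a line at the mean of the 2 libraries. Fosl2 and Batf sit higher and Jun lower in all 4 stimulated libraries than in Control, while both MUS libraries have the lowest Jund.

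The order of the mean levels per length changed between the groups. In Control the order was Atf3, Junb, Jun, Fos, Jund, Maff, Fosl2, Batf, Fosl1 and Fosb. Atf3 stood clear of Junb, at 219 ± 28.4 FPKM against 58.6 ± 13.7 FPKM (SD, n = 2), and the neighbours from Junb down to Fosl2 overlapped in their libraries. In Model the order began with Atf3, Junb and Fosl2, each clear of the next, at 367 ± 34.1, 99.3 ± 8.87 and 34.1 ± 5.65 FPKM. Jund, Maff, Batf, Jun and Fos followed, and each overlapped with its neighbour among them. In MUS the same 3 genes led, at 509 ± 2.70, 49.1 ± 13.1 and 34.4 ± 0.176 FPKM. Fos overlapped with Batf and Maff with Jun there, and Jund came after them at 5.15 ± 2.01 FPKM.

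Model vs. Control asks what LPS and ATP did to these genes. Fosl2 and Batf rose and Jun fell, by 5.5-fold, 5.73-fold and 3.34-fold in mean FPKM, while 6 of the 9 tested members did not pass the test. That is 3 members called, in a comparison where 15.1% of all 9794 tested genes were called. As shares of all tested genes, 9.5% were called higher and 5.56% lower. The share called among the 9 members was above that of all genes. So was that among the 28 tested bZIP (basic leucine zipper) genes outside the members, of which 6 were called higher and 2 lower. A gene was called at an adjusted p of at most 0.05 and a log2 fold change beyond 1 in size, both from limma on log2(FPKM + 1), a scale that understates the change of low genes. At an unadjusted p under 0.05 there were 4 members, beside 33.6% of all tested genes. The libraries of the groups did not overlap for 6 of the 9 tested members, against 61.1% of all tested genes. The members' median log2 fold change was 0.64, beside 0.04 for all genes tested. This median is the value of Maff alone, which was not called, and 5 members were higher and 4 lower.

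The log2 fold change of Fosl2 in Model vs. Control was 2.35 ± 0.34 (SE), with an adjusted p of 0.00695. For Batf it was 2.14 ± 0.33, with an adjusted p of 0.00779. Both stayed called in 18 of 19 alternative settings and lost the call only without the filter on low values, at adjusted p of 0.0629 and 0.0707. Jun changed by -1.63 ± 0.34, with an adjusted p of 0.0220. Its direction held in all 19 settings and its call in 13, and the adjusted p was 0.105 without Model replicate 1, the library with the most genes detected. Without Control replicate 2, 5 members were called in place of 3, with Fos at -1.56 and Maff at 1.64 added. Without Control replicate 1, Model replicate 1, MUS replicate 1 or MUS replicate 2, only Fosl2 and Batf were called.

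Fos missed the threshold in Model vs. Control, at -1.15 ± 0.36 with an adjusted p of 0.0696. Its fitted change was negative in all 19 settings and called in 6 of them. Junb was 0.77 ± 0.33 (95% CI -0.017 to 1.55, adjusted p 0.156) and Atf3 0.74 ± 0.33 (95% CI -0.035 to 1.52, adjusted p 0.164). These values depended on the scale of the libraries. With each library scaled to its fragments, Junb came to 0.23 and Atf3 to 0.20, and with quantile normalization they turned to -0.015 and -0.25. With the GC correction Junb rose by 1.28 and was called (adjusted p 0.0453), a call that was lost when the replicate block was added (adjusted p 0.0548). The recovered fragments themselves were 2571 and 3593 in Control and 3427 and 3315 in Model for Junb. For Atf3 they were 9804 and 11790 in Control and 11890 and 11446 in Model. Maff (0.64 ± 0.58, adjusted p 0.473), Fosl1 (-0.070 ± 0.22, adjusted p 0.844) and Jund (-0.0055 ± 0.40, adjusted p 0.994) also did not pass, and the interval for Jund still ran from -0.96 to 0.95.

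MUS vs. Model asks what muscone added to stimulated cells. None of the 9 tested members was called in limma, and 0.0% of all tested genes were, so this fit gave no call in the comparison. Some alternative settings did call genes, 7 with only the 2 groups compared and 4 with the replicate block, but no member. The study reported differentially expressed genes for this comparison from DESeq2, which was not run here. At an unadjusted p under 0.05 there were 2 members, Jund and Junb, both lower in MUS, beside 8.42% of all tested genes in either direction and 5.81% lower. By voom on the recovered fragments 0 genes were called as well. The libraries did not overlap for 5 of the 9 tested members, namely Fos, Junb, Jund, Atf3 and Maff, against 42.1% of all tested genes. The members' median was -0.042, beside 0.01 for all genes tested.

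Jund was 4.04-fold lower in mean FPKM in MUS than in Model, a log2 fold change of -1.78 ± 0.40 (95% CI -2.73 to -0.83, p 0.00307, adjusted p 0.350 in limma). On fragments it counted 94 and 178 in MUS against 661 and 349 in Model. Without Model replicate 1 the value was -1.28. Junb was 2.02-fold lower, at -1.02 ± 0.33 (95% CI -1.81 to -0.24, p 0.0177, adjusted p 0.466 in limma). Both directions held in all 19 alternative settings. GC content moved with them, since Jund and Junb transcripts held 67.1% and 62.6% G and C, more than in 99.9% and 99.2% of the tested genes. The 979 tested genes richest in GC, at 57.1% or more, had a median of -0.37 in MUS vs. Model, against 0.084 for the 979 poorest, at 40.8% or less. After each library's trend with GC content was taken off, Jund was -0.96 and Junb -0.46, with adjusted p of 0.669 and 0.823.

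None of the remaining members had an unadjusted p under 0.05 between MUS and Model. Fos was 1.79-fold higher in MUS in mean FPKM, at 0.81 ± 0.36 (95% CI -0.040 to 1.65, adjusted p 0.617). Atf3 was 0.47 ± 0.33 (95% CI -0.31 to 1.25, adjusted p 0.757), and Maff -0.83 ± 0.58 (95% CI -2.21 to 0.54, adjusted p 0.757). All 3 kept their direction in all 19 settings. Fosl2, at 0.021 (95% CI -0.79 to 0.83), Batf, at 0.15 (95% CI -0.62 to 0.92), and Jun, at -0.40 (95% CI -1.21 to 0.41), had overlapping libraries. Fosl1 was -0.042 (95% CI -0.56 to 0.48). Fosb, fitted only without the filter, was 0.14 (95% CI -0.050 to 0.33, adjusted p 0.671), with both MUS libraries above both Model libraries and a mean FPKM 2.46 times that of Model. Of the 7 tested members named here, the intervals of Maff and Jun reached below -1 and those of Fos and Atf3 above 1.

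**Figure D2:**
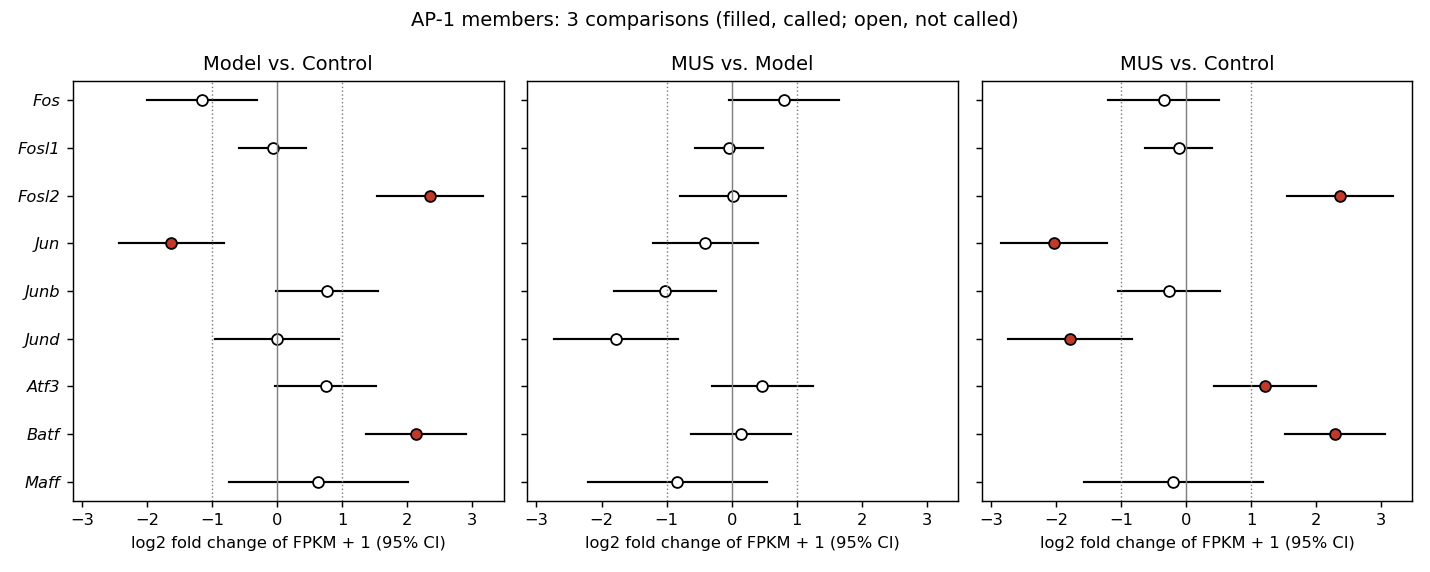
Log2 fold change of FPKM + 1 with its 95% confidence interval (horizontal axis) for the 9 tested members in Model vs. Control, MUS vs. Model and MUS vs. Control, from limma on all 6 libraries. Filled points passed the test, which holds for Fosl2, Batf and Jun in the left panel, for no member in the middle panel and for Fosl2, Batf, Atf3, Jun and Jund in the right panel, and dotted lines mark a change of 1.

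MUS vs. Control sets muscone with LPS and ATP against untreated cells, and it shares its MUS libraries with MUS vs. Model and its Control libraries with Model vs. Control. Fosl2, Batf and Atf3 rose, and Jun and Jund fell. In all, 5 of the 9 tested members were called, beside 20.2% of all tested genes. As shares of all tested genes, 11.3% were called higher and 8.91% lower. The same 5 members had an unadjusted p under 0.05, beside 39.7% of all tested genes. The libraries did not overlap for 6 members, against 73.3% of all tested genes. The members' median was -0.20, beside 0.04 for all genes tested.

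The log2 fold change in MUS vs. Control was 2.37 ± 0.34 for Fosl2 (adjusted p 0.00534) and 2.29 ± 0.33 for Batf (adjusted p 0.00505). Their mean FPKM were 5.55 and 6.15 times those of Control. Jun was 4.56-fold lower, at -2.03 ± 0.34 (adjusted p 0.00849). Atf3 was 2.32-fold higher, at 1.22 ± 0.33 (adjusted p 0.0377), and this call held in 10 of 19 settings. It was lost with the replicate number as a block (adjusted p 0.0658), with each library scaled to its fragments (0.68, adjusted p 0.113) and with quantile normalization (0.27, adjusted p 0.479). Jund was 3.85-fold lower, at -1.78 ± 0.40 (adjusted p 0.0215). That call held in 13 of 19 settings and did not survive the GC correction, which gave -0.23 with an adjusted p of 0.657. The 979 genes richest in GC had a median of -0.72 in this comparison, against 0.35 for the 979 poorest.

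Single libraries weighed on these calls. Without MUS replicate 1, 0 members were called, and without MUS replicate 2 or Control replicate 1 the 3 called members were Fosl2, Jun and Batf. Without Control replicate 2 or either Model library, the same 5 were called. Fos (-0.35 ± 0.36, adjusted p 0.505), Junb (-0.25 ± 0.33, adjusted p 0.597), Maff (-0.20 ± 0.58, adjusted p 0.827) and Fosl1 (-0.11 ± 0.22, adjusted p 0.733) did not pass the test in MUS vs. Control. With the GC correction the fitted values of Junb, Maff and Fosl1 changed sign, to 0.81, 0.38 and 0.55. Over the 19 settings Fos ran from -0.90 to 0.062 and Junb from -0.91 to 0.81, and neither was called in any. The recovered fragments of Fos were 1700 and 943 in Control and 719 and 635 in MUS. For Junb they were 2571 and 3593 in Control and 1385 and 2183 in MUS. On fragments the 2 groups thus did not overlap for either gene, unlike on deposited FPKM.

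**Figure D3:**
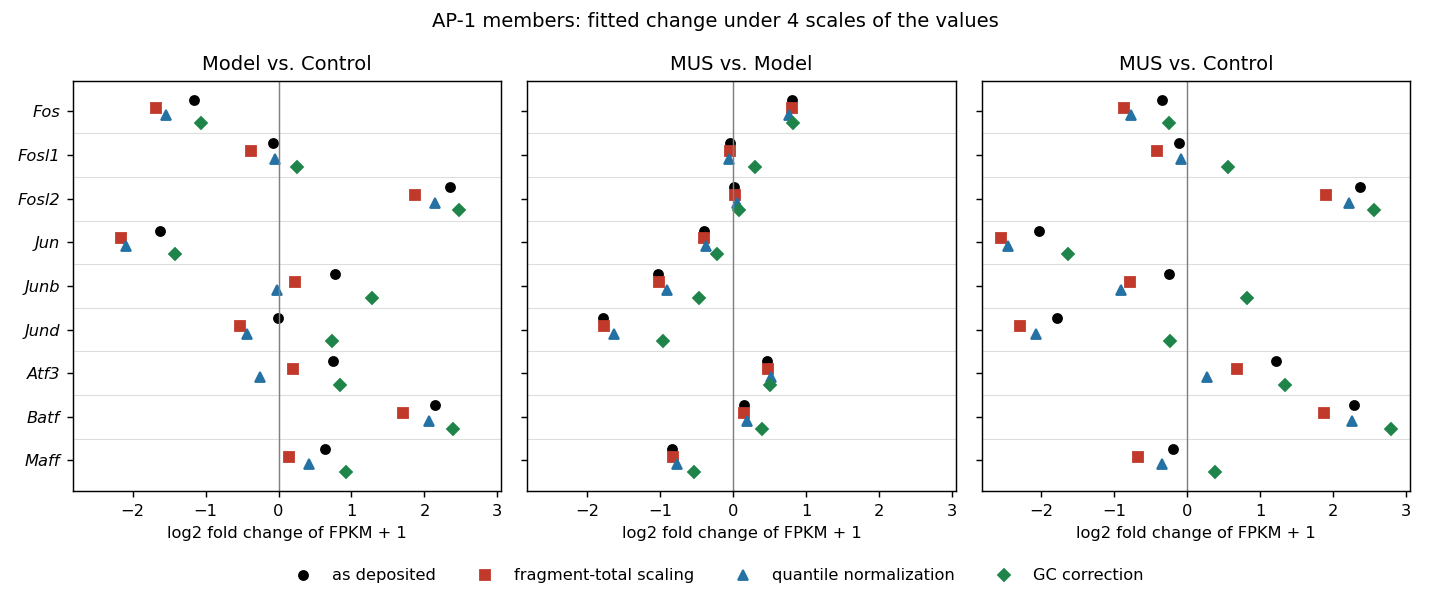
Fitted log2 fold change of FPKM + 1 (horizontal axis) of the 9 tested members in the 3 comparisons with the values as deposited, scaled to the fragments of each library, quantile normalized, and corrected for GC content. Fosl2, Batf and Jun stay on the same side of 0 in Model vs. Control and MUS vs. Control under all 4, while Atf3 and Junb cross 0 in Model vs. Control with quantile normalization.

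Shares within a library do not depend on its overall scale, so the make-up of the AP-1 transcript pool was also described, as a share of summed FPKM and with no test. With 2 libraries against 2, an exact permutation test cannot go below a p of 0.333. The sum over the 10 members was 364 and 405 FPKM in Control, 611 and 543 FPKM in Model and 638 and 665 FPKM in MUS. Unlike the shares, this sum moves with the scale of the library. That scale was 1.34 to 1.45 times the fragment total in Control, against 0.909 to 0.998 in Model and 0.932 to 0.986 in MUS. The part of the scale in the lower Control sum was not tested. Atf3 made up 54.7% and 59.1% of it in the Control libraries, against 64.1% and 63.2% for Model and 79.4% and 76.7% for MUS. The Jun family made up 33.3% and 28.1% in the Control libraries, against 23.5% and 22.2% for Model and 7.98% and 11.2% for MUS. The groups did not overlap in either share. With the GC correction the Jun family share was 26.9% and 24.4% in Control, against 23.0% and 21.8% for Model and 11.7% and 13.9% for MUS, and the Atf3 share was 60.5% and 62.9% in Control, against 64.6% and 63.5% for Model and 75.3% and 74.0% for MUS.

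Within the Fos family, Fos was the larger part in Control and Fosl2 in the stimulated libraries. Fos held 85.9% and 64.5% of the family's FPKM in the Control libraries, against 20.3% and 24.4% for Model and 36.1% and 32.0% for MUS. Fosl2 held 10.9% and 30.9% in the Control libraries, against 76.7% and 73.5% for Model and 61.6% and 66.0% for MUS. The 3 groups were apart for both genes, with MUS between Control and Model. Within the Jun family, Jun held 40.9% and 25.2% in the Control libraries, against 6.72% and 11.5% for Model and 14.4% and 13.1% for MUS. Junb held 40.3% and 60.0% in Control and between 73.7% and 78.3% in the 4 stimulated libraries. There were 0.081 and 0.293 Fosl2 transcripts per Jun transcript in the Control libraries, against 3.13 and 2.76 for Model and 4.71 and 3.49 for MUS, all as ratios of FPKM. For Atf3 to Junb the ratio was 4.07 and 3.51 in the Control libraries, against 3.71 and 3.69 for Model and 12.7 and 8.74 for MUS. The GC-corrected ratio of Atf3 to Junb was 6.16 and 4.41 in Control, against 3.82 and 3.78 for Model and 8.16 and 6.81 for MUS, so that Control lay above Model.

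**Figure D4:**
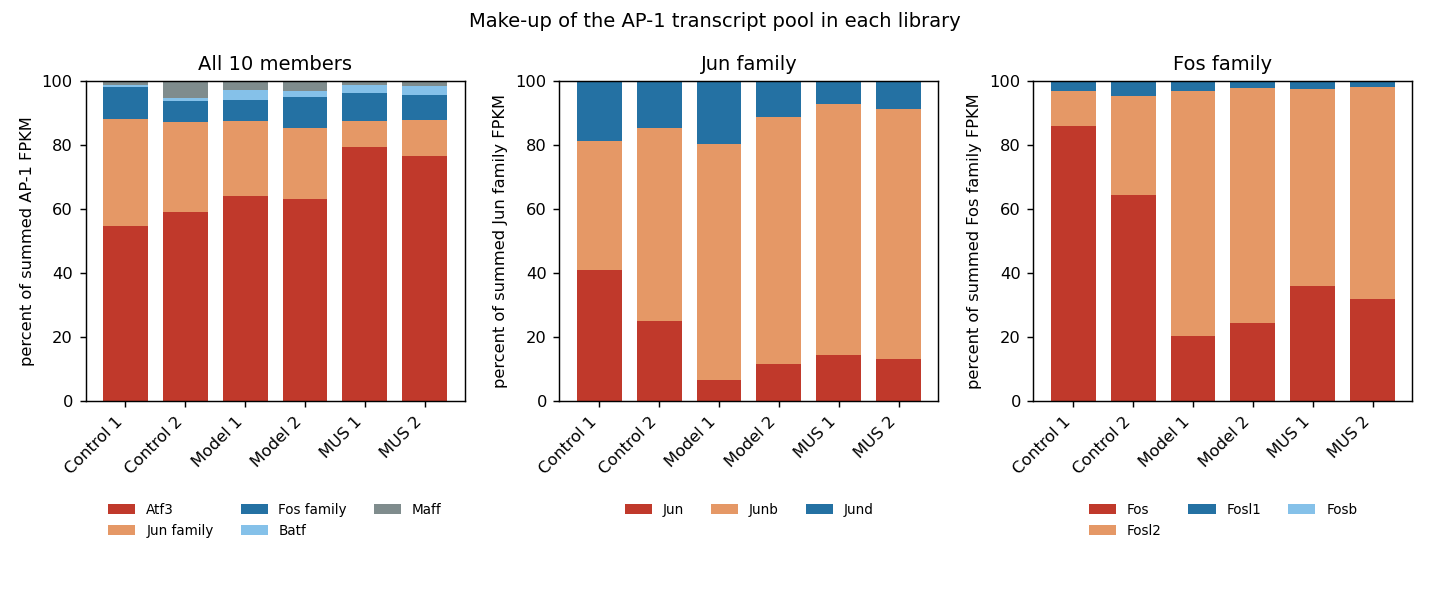
Stacked bars, from 0 to 100%, of the make-up of summed AP-1 FPKM (left), of the Jun family (middle) and of the Fos family (right) in each of the 6 libraries. Atf3 takes 54.7% to 59.1% in Control and 76.7% to 79.4% in MUS, and Fosl2 is the larger part of the Fos family in all 4 stimulated libraries.

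The pathway around these factors was described through gene lists, each read against the 15.1% of all genes called in Model vs. Control and the 20.2% called in MUS vs. Control. Of 25 other bZIP factors, which share the leucine zipper, 23 were tested, and 5 rose and 2 fell in Model vs. Control. Cebpa, a myeloid lineage factor, fell by 3.09 on the log2 scale (adjusted p 0.00462), from 152 and 68.4 FPKM in Control to 11.4 and 10.9 FPKM in Model. Batf2 rose by 2.38 (adjusted p 0.00863), from 0.936 and 3.03 FPKM to 11.1 and 16.4 FPKM. Nfil3, an interleukin-3-regulated bZIP factor, rose by 2.23 (adjusted p 0.00944), from 7.94 and 3.75 FPKM to 34.1 and 25.8 FPKM. In MUS vs. Control 4 rose and 2 fell, led by Cebpa at -4.02 (adjusted p 0.00187), Nfil3 at 3.49 (adjusted p 0.00220) and Batf2 at 2.33 (adjusted p 0.00722). Among the 28 tested genes that the deposited table itself marks as bZIP outside the 10 members, 6 rose and 2 fell in Model vs. Control, and 5 rose and 3 fell in MUS vs. Control. No gene of these or the following lists was called in MUS vs. Model.

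Of the MAP kinase chain that leads to AP-1, 19 of 22 genes were tested, with 4 called higher and 1 lower in Model vs. Control. They were led by Map2k1, the ERK kinase MEK1, at 2.52 (adjusted p 0.00499), Map3k8, the LPS-responsive kinase TPL2, at 2.08 (adjusted p 0.00483), and Rps6ka1, the kinase RSK1, at -1.35 (adjusted p 0.0123). The other called genes, named after their values were seen, were Map2k3 and Map2k4. In MUS vs. Control 5 were higher and 2 lower, led by Map2k1 at 2.44 (adjusted p 0.00448), Mapk3, the kinase ERK1, at -1.63 (adjusted p 0.0346) and Map3k8 at 1.58 (adjusted p 0.00874). The list of nuclear inducers, meaning SRF and the ETS, MEF2 and CREB factors listed as acting on the Fos and Jun promoters, had 8 of 9 genes tested. Only Mef2d was called in Model vs. Control, at -1.91 (adjusted p 0.0251). Ets2, at 2.84 (adjusted p 0.0149), and Mef2d, at -2.16 (adjusted p 0.0133), were called in MUS vs. Control.

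All 13 genes listed as brakes on MAP kinases and AP-1 were tested, and 4 rose and 0 fell in Model vs. Control. The largest changes were those of Dusp16 (2.77, adjusted p 0.00499) and Dusp2 (2.43, adjusted p 0.00214), which encode MAP kinase phosphatases, and of Zfp36 (2.35, adjusted p 0.00849), whose product TTP destabilizes AU-rich mRNAs. In MUS vs. Control 5 rose and 0 fell, led by Dusp16 (2.94, adjusted p 0.00357), Dusp1 (2.52, adjusted p 0.00324) and Zfp36 (2.27, adjusted p 0.00742). The other brakes called, named after their values were seen, were Dusp1 in Model vs. Control and Dusp2 and Dusp5 in MUS vs. Control. The median of this list was 0.68 in Model vs. Control and 0.38 in MUS vs. Control.

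Textbook AP-1 targets, many of which NF-κB also drives, had 24 of 26 genes tested. Between Model and Control, 15 rose and 1 fell, and the median was 3.02. Il1b (9.67, adjusted p 0.00488), Il6 (8.82, adjusted p 0.000504) and Ptgs2 (8.13, adjusted p 0.00631), which encode the cytokines IL-1β and IL-6 and the prostaglandin enzyme COX-2, changed most. Vegfa, picked out after its values were seen as the gene that fell, was at -2.0 (adjusted p 0.0224). Its levels were 24.7 and 9.03 FPKM in Control, 3.09 and 2.95 FPKM in Model and 30.9 and 26.6 FPKM in MUS. In MUS vs. Model Vegfa was 2.88 ± 0.42 (adjusted p 0.257) and thus not called. In MUS vs. Control 14 targets rose and 0 fell, with a median of 2.54, led by Il1b (9.51, adjusted p 0.00422), Il6 (8.62, adjusted p 0.000617) and Ptgs2 (7.98, adjusted p 0.00520).

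Immediate early genes outside AP-1 offered a comparison for Fos and Jun, since they share rapid induction. Of 17 tested, 9 were called higher and 0 lower in Model vs. Control, around a median of 1.66. By direction alone 11 were higher and 6 lower, with 2 of the lower ones at an unadjusted p under 0.05 in limma. Of the tested immediate early members, Fos was at -1.15 and Junb at 0.77, neither called, and Jun was at -1.63. Ier3 (3.39, adjusted p 0.00255), Ier2 (3.16, adjusted p 0.00200) and Zfp36 led the genes called higher. In MUS vs. Control 10 rose and Rhob, named after its values were seen, fell by 1.12 (adjusted p 0.0420), with a median of 1.69. Those that rose were led by Ier3 (2.79, adjusted p 0.00367), Nr4a3 (2.71, adjusted p 0.00133) and Dusp1. Of 7 heat shock and handling genes, none was called in Model vs. Control at a median of 0.62, and Hspa8 (1.51, adjusted p 0.0196) and Hspa1b (1.06, adjusted p 0.0377) rose in MUS vs. Control. Irf4 and Irf8, the IRF partners of BATF, were both tested and neither was called in any comparison. Their levels over the 6 libraries ran from 1.23 to 2.83 FPKM for Irf4 and from 7.51 to 18.7 FPKM for Irf8.

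The genes whose pattern over the 6 libraries was closest to each member were found as the smallest root mean square difference of centred log2(FPKM + 1), for members whose values spanned more than 1. Batf2 (0.080) and Dcp2 (0.093) were closest to Fosl2. Batf2, itself a bZIP gene, averaged 1.98, 13.8 and 13.0 FPKM in Control, Model and MUS. Nat6 (0.077) and Mkl1 (0.11) were closest to Jun, and Iqgap2 (0.10) and Abca9 (0.14) to Fos. Eif2s1 (0.094) and Xrn2 (0.11) were closest to Atf3. Eif2s1, which encodes the α subunit of eIF2, averaged 13.2, 22.1 and 30.1 FPKM in the same order. For Batf they were E2f5 (0.15) and BC147527 (0.15), for Junb Fbxo6 (0.11) and Acaa1a (0.11), and for Maff Foxp4 (0.25) and Cxcl13 (0.26). Those closest to Jund, at 0.20 and 0.22, were Rps19-ps7 and Oaz1-ps, both pseudogenes by name. Rps19-ps7 averaged 3.39, 2.85 and 0.211 FPKM in these groups. Fosl1 spanned 0.21 and was not compared.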

How the data were processed

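Poly-A RNA of 6 libraries, 2 in each group, was analysed. The authors deposited 1 table of FPKM, with a column per library and 0 columns without a sample. The study's methods name RSEM for FPKM and DESeq2 for differential expression, whereas the submitters' processing notes name HISAT2, featureCounts 1.5.0-p3 and GRCm39. Gene positions equal those of GENCODE M21, on GRCm38, for 98.33% of 54495 shared gene IDs. FPKM times gene length gave whole multiples of a step for 100% of values (tolerance 0.1 of a step), which were taken as fragments.

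Values were fitted as log2(FPKM + 1) in limma 3.58.1 (R 4.3.3; lmFit, contrasts.fit and eBayes with trend) for the 9794 genes averaging 1 FPKM or more, in 1 model of 3 groups over all 6 libraries (3 residual and 4.04 prior degrees of freedom). p-values are two-sided and Benjamini-Hochberg adjusted over all genes tested. The labels give the replicate number as batch, so numbers pair the libraries. Differences between replicates correlated at 0.12 (Control and Model), -0.093 (Control and MUS) and 0.14 (Model and MUS), and the block is an alternative. GC content is that of the longest GENCODE M21 transcript, present for 99.9% of tested genes, and the correction took off a 5-df spline in each library. Other alternatives were the pseudocount, the filter, 3 scalings, voom on recovered fragments, no trend, fits of 2 groups and leaving out each library. The fit and the correction were tested on simulated data. Tables were prepared in Python 3.11.15 with pandas 2.3.3.

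Members and gene lists were chosen with earlier results of these data known. Named were all 10 members, the 3 called genes of each list with the largest change, and the 2 genes closest in pattern to a member.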

Additional observations from a re-analysis of the deposited data

How the results depend on the processing

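Among 510 values of single members under 19 alternatives, 450 kept direction and side of the threshold, 28 lost a call, 8 gained a call and 24 changed sign. The causes were not tested. The alternatives voom with median-ratio scaling and both GC corrections were chosen after seeing the data. No filter on low values tested more genes and left 0 members and 260 genes in Model vs. Control and 1 member (Fosl2) and 456 genes in MUS vs. Control. Voom on recovered fragments called 2734 and 3144 genes, of which 684 and 758 were higher. Fragment-total scaling gave 646 higher and 1554 lower genes in Model vs. Control and 738 and 1953 in MUS vs. Control, quantile normalization 707 and 715, then 885 and 1102, beside 930 and 545, then 1107 and 873, as deposited. With only the 2 groups compared, 797 genes were called in Model vs. Control and 7 in MUS vs. Model, where a pseudocount of 0.1 gave 1. The replicate block gave 4 genes in MUS vs. Model, removed the call of Atf3 in MUS vs. Control and changed no other call of a member. With GC correction plus replicate block, 3 members were called in MUS vs. Control.

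Leaving out 1 library gave 2 to 5 members and 692 to 2077 genes in Model vs. Control, 0 to 31 genes in MUS vs. Model (31 without Model replicate 2), and 0 to 5 members and 184 to 2398 genes in MUS vs. Control (184 without MUS replicate 1). The lone library is then assumed to vary like the other groups. Ranges that crossed 0 were -0.51 to 0.50 for Jund and -0.37 to 1.64 for Maff in Model vs. Control. In MUS vs. Model they were -0.11 to 0.024 for Fosl1, -0.14 to 0.19 for Fosl2 and -0.24 to 0.54 for Batf. In MUS vs. Control they were -0.75 to 0.062 for Fos, -0.53 to 0.016 for Junb and -1.20 to 0.80 for Maff. GC correction, with or without the block, turned Fosl1 to 0.26, 0.30 and 0.55 in the 3 comparisons, Jund to 0.73 in Model vs. Control, and Junb to 0.81 and Maff to 0.38 in MUS vs. Control. Quantile normalization turned Junb to -0.015 and Atf3 to -0.25 in Model vs. Control.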
